A study of Mus musculus with 3 samples.

Results

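A set of 9 genes of the Hedgehog pathway was followed across cultured cells of the mouse epicardium: the receptors and membrane proteins Ptch1, Smo and Hhip, the co-receptors Boc, Cdon and Gas1, and the transcription factors Gli1, Gli2 and Gli3. They were taken by gene symbol, and all 9 were found among the 18245 genes of the deposited table. Messenger RNA was sequenced from 3 kinds of cell, all from C57BL/6 mice and labelled as ventricle epicardium, with 3 libraries each. CDC were cardiosphere-derived cells, the adherent cells grown from epicardial explants through floating spheres, from 6-week-old mice and at passage 3 in medium with 20% serum. CDC-EpiC was 1 clone of epithelial shape that had appeared in primary CDC within 2 weeks of culture with SB-431542 at 10 µM, a compound that blocks the receptor kinase of the TGF-beta pathway, and that was isolated in a cylinder. Its passage and serum were not given in the sources used here. pEpiC were primary epicardial cells from mice of 6 to 8 weeks, at passage 3 in 10% serum, which the methods describe as obtained by digesting the heart. Neither CDC nor pEpiC is described as having received the inhibitor, so treatment, cloning and culture cannot be told apart in CDC-EpiC, and its libraries carry no difference between clones.

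Hedgehog signalling works by release of a brake. Without ligand, Patched proteins hold Smoothened inactive, and Gli3 and Gli2 are processed at the primary cilium into repressors, Gli3 the more readily. Ligand, held by Boc, Cdon or Gas1 together with Patched, frees Smoothened, and Gli2 then acts chiefly as an activator of transcription. Gli1, Ptch1 and Hhip are classical targets of the pathway, so their transcripts are commonly read as its output, while Ptch1 and Hhip in turn restrain it. On GRCm38 (GENCODE M21), Gas1 lies at chr13:60174405-60177365, Ptch1 at chr13:63508328-63573598 and Gli3 at chr13:15463235-15730026, so that 3 of the 9 genes share a chromosome. Gli2 lies at chr1:118834132-119053619, Smo at chr6:29735503-29761365, Hhip at chr8:79965851-80058006, Cdon at chr9:35421128-35507652, Gli1 at chr10:127329882-127341974 and Boc at chr16:44485049-44558897. Reads were counted per gene, so no exon or transcript form is told apart. In the developing heart the epicardium is among the tissues in which the pathway has been described.

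RefSeq promoter windows on GRCm38.p6, from 250 bases before to 50 bases after the annotated start, were at hand for 7 of the 9 genes, and none for Gli1 or Boc. The windows of Ptch1 and Hhip are shown because both genes are classical targets but only one of them was detected here. That of Smo is shown because, of the 9 genes, its pattern over the libraries lay closest to that of Ptch1. CpG dinucleotides are in capitals. The Ptch1 window lies at chr13:63565686-63565985 on the minus strand, Hhip at chr8:80057959-80058258 on the minus strand and Smo at chr6:29735247-29735546 on the plus strand.
Ptch1: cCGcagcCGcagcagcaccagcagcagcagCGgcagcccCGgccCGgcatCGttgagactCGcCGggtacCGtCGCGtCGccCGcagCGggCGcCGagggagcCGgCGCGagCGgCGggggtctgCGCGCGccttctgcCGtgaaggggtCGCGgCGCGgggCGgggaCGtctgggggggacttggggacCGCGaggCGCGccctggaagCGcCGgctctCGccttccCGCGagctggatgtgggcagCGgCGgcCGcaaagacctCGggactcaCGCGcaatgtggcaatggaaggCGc
Hhip: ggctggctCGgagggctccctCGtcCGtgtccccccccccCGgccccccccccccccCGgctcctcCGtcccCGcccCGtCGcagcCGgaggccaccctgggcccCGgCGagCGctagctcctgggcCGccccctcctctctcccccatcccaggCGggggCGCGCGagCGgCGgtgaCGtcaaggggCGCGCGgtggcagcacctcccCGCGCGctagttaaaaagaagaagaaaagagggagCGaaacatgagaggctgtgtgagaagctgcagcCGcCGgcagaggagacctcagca
Smo: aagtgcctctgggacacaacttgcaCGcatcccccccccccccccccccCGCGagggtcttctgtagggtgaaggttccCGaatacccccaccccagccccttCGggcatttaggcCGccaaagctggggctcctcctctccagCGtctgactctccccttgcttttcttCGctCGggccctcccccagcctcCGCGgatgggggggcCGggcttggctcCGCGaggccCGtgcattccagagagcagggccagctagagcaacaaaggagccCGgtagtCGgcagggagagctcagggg
The Ptch1 window held 47 CpG dinucleotides and 76.3% G and C, the Hhip window 30 and 73.7%, and the Smo window 17 and 67.7%. The median over 32851 promoter windows was 7 dinucleotides and 52.7%. The Cdon window was lowest among the 7, with 3 dinucleotides and 44.7% G and C. The start that RefSeq gives lies 7863 bases inside the GENCODE gene for Ptch1 and 30948 bases inside it for Cdon, so these 2 windows belong to an internal start and not to the outermost one, while for Hhip and Smo the starts of both annotations lie within 6 bases of each other. The Gli consensus GACCACCCA, searched on both strands, was absent from all 7 windows, also when 1 mismatch was allowed. Of all windows, 0.2527% held it exactly and 6.74% with at most 1 mismatch.

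The deposited values were expected counts, estimated reads per gene, with library totals of 22008833 to 22756045. Levels are given as counts per library, as CPM (counts scaled by TMM to a common library size) or, where genes are compared with each other, as FPKM, which is also scaled to transcript length. Values after ± are SD with n = 3. Changes are log2 ratios from the quasi-likelihood test of edgeR, and p-values were adjusted over all genes tested by the Benjamini-Hochberg method. GEO lists a single sample per kind, and the columns were taken as replicates since the labels mention separate samples for RNA extraction. How they relate to animals or cultures is unknown, so the p-values measure the spread between these libraries, which may be technical. CDC libraries 1 and 2 held more cardiomyocyte transcripts than library 3, with summed CPM of the 10 markers of 30.03, 29.2 and 9.69, and values without both are given where a call ends. The same sum was 138 to 154 in pEpiC and 10.1 to 12.8 in CDC-EpiC. Macrophage markers summed to 72.6 to 74.4 CPM in CDC, to 29.99 to 32.9 in CDC-EpiC and to 299 to 832 in pEpiC, whose library 1 was highest. Fibroblast markers summed to 31396 to 34201 CPM in pEpiC, against 9311 to 12383 in CDC and 6405 to 7927 in CDC-EpiC, and the 8 epicardial markers to 5758 to 6728 CPM in CDC-EpiC, against 641 to 683 in CDC and 556 to 590 in pEpiC. Markers of a list did not always move together. Of the 8 epicardial markers, 4 were called higher and 4 lower in pEpiC vs CDC. In CDC-EpiC, 6 were higher and 1 lower against CDC, and 6 higher and 2 lower against pEpiC. All 7 fibroblast markers were higher in pEpiC vs CDC, but 2 were higher and 3 lower in CDC-EpiC vs CDC. Only 3 of the 10 cardiomyocyte markers were tested in pEpiC vs CDC, 1 called higher and 1 lower. Of the 5 endothelial markers tested there, 4 were higher and 1 lower. Of the 4 macrophage markers tested in CDC-EpiC vs CDC, 1 was higher and 3 lower. Of all genes tested, 78.3% were called in pEpiC vs CDC, 68.8% in CDC-EpiC vs CDC and 81.9% in CDC-EpiC vs pEpiC. Of the 10 macrophage markers, 4 in CDC and 6 in CDC-EpiC did not exceed 3 counts, and of the 10 cardiomyocyte markers 5 in CDC-EpiC and 5 in pEpiC. The 10 endothelial markers summed to 24.5 to 26.8 CPM in pEpiC, 7.52 to 8.62 in CDC and 8.55 to 9.99 in CDC-EpiC. The part of these cell type signals in the values below was not tested. In bulk RNA, fewer cells that express a gene and less of its RNA per cell cannot be told apart.

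Hhip and Gli1 were practically silent in every kind of cell. Hhip, the membrane protein that binds and sequesters Hedgehog ligands, gave 1, 0 and 0 counts in CDC, 0, 0 and 1 in CDC-EpiC and none in pEpiC. Gli1, the amplifying transcription factor, gave 2, 8 and 0 counts in CDC, 1, 0 and 1 in CDC-EpiC and 2, 1 and 1 in pEpiC. The single value of Gli1 above 3 counts was that of CDC library 2. A count of 0 allows up to 3 counts, or 0.1301 to 0.1384 CPM per library, counting error only. Neither gene passed the filter on low counts, and fitted without it their adjusted p ranged from 0.160 to 0.993 over the comparisons (edgeR). Differences between the kinds in these genes were thus not detectable at this depth.

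The other 7 genes were tested in all comparisons. In CDC, Smo stood highest per length at 45.2 ± 2.14 FPKM, followed by Boc at 5.34 ± 0.325, Gas1 at 5.02 ± 0.848 and Gli3 at 4.17 ± 0.392. Boc and Gas1 differed there by less than their spread. Cdon at 2.30 ± 0.357, Gli2 at 1.67 ± 0.106 and Ptch1 at 1.21 ± 0.166 FPKM were lowest. In CDC-EpiC, Smo reached 94.0 ± 4.27 FPKM and Gas1 27.9 ± 2.18, while Boc at 15.5 ± 1.18 and Cdon at 15.5 ± 0.958 were level. In pEpiC, Gas1 took the first place at 148 ± 30.2 FPKM, ahead of Smo at 36.5 ± 0.511 and Cdon at 24.1 ± 1.25. Gli2 was the lowest of the 7 in pEpiC, at 1.28 ± 0.183 FPKM.

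**Figure D1:**
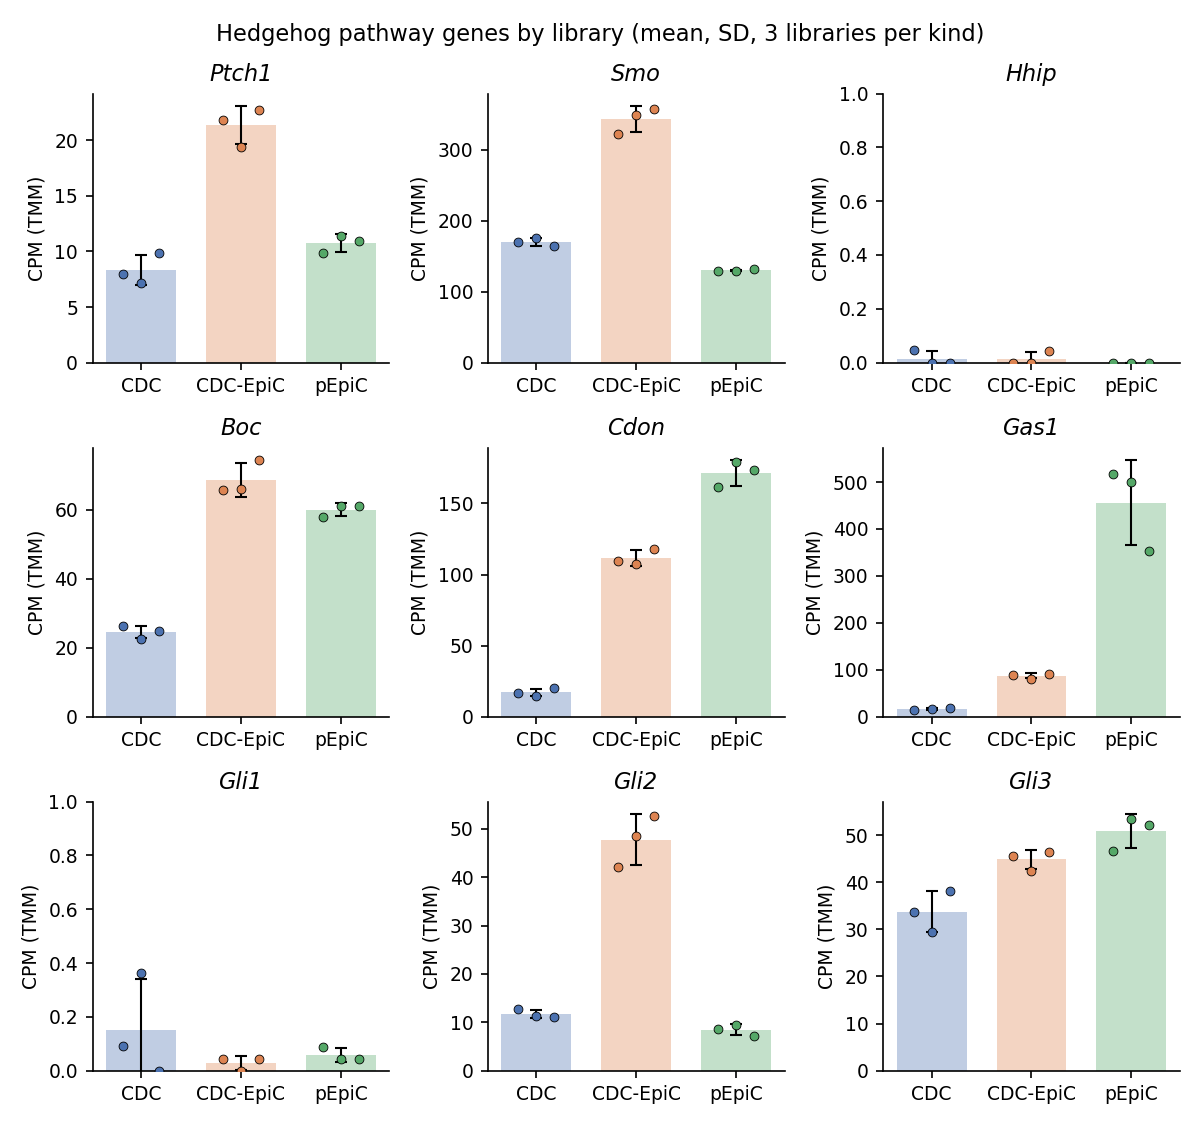
TMM-scaled CPM (y axis, from 0) of the 9 genes in the 3 kinds of cell (x axis). Points are libraries 1 to 3 from left to right, bars the mean and whiskers the SD of 3 libraries; all 9 libraries of Hhip and Gli1 lie under 1 CPM, Gas1 reaches its highest levels in pEpiC, and Gli2, Ptch1 and Smo theirs in CDC-EpiC.

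All 7 tested genes passed the test and were higher in CDC-EpiC than in CDC. Of all 12976 genes tested, 68.8% passed in either direction and 34.2% were higher. Of the 7, 6 rose at least 2-fold, against 9.33% of all genes, and none fell 2-fold, against 12.4%. Smo lay at this cutoff, with 1.004 log2 and 0.88 to 1.08 over the alternatives, so that their number was 5 to 6. The median log2 change of the 7 was 1.47, and that of all genes tested 0.00267. The genes were chosen with earlier results of these data known. The shares of all genes, here and in the comparisons below, are therefore a description and no independent test. Direction and call held in all 18 alternative analyses for 6 of the 7 genes, Gli3 being the exception.

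Among the receptors, Ptch1, the Hedgehog-binding protein that restrains Smo, gave 173, 158 and 217 counts in CDC and 494, 428 and 513 in CDC-EpiC. It rose by 1.35 log2 (SE 0.116, adjusted p = 6.58e-08), or 2.55-fold. Smo, the signal-transducing membrane protein, gave 3693, 3868 and 3644 counts in CDC and 7288, 7695 and 8062 in CDC-EpiC, a rise of 2.01-fold (1.004 log2, SE 0.0766, adjusted p = 1.67e-08). Every clone library lay above every CDC library for both. The ratio of Ptch1 to Smo, from FPKM within a library, was chosen after seeing the data. It was 0.0269 ± 0.00483 in CDC, 0.0372 ± 0.00260 in CDC-EpiC and 0.0497 ± 0.00738 in pEpiC. The transcripts of Ptch1 (6225 bases) and Smo (3665 bases) differ in length. The change of this ratio in CDC-EpiC vs pEpiC was -0.41 log2 in the fit as reported, -0.12 with an offset for length and 0.19 with length and GC content, so that the order of these kinds turned.

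The co-receptors rose as well, Cdon and Gas1 by more than Ptch1 and Smo. Cdon, an immunoglobulin-superfamily protein that binds ligand beside Patched, gave 366, 320 and 439 counts in CDC and 2484, 2362 and 2660 in CDC-EpiC, which is 6.50-fold higher (2.70 log2, SE 0.101, adjusted p = 4.27e-12). Gas1, a lipid-anchored ligand-binding protein, gave 295, 360 and 418 counts in CDC and 2009, 1789 and 2066 in CDC-EpiC, or 5.33-fold more (2.41 log2, SE 0.104, adjusted p = 2.19e-11). Boc, the relative of Cdon, went from 570, 500 and 551 counts to 1487, 1457 and 1680, or 2.78-fold (1.47 log2, SE 0.0839, adjusted p = 5.26e-10).

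Of the transcription factors, Gli2 gave 275, 248 and 246 counts in CDC and 952, 1067 and 1187 in CDC-EpiC, a rise of 4.06-fold (2.02 log2, SE 0.0989, adjusted p = 9.32e-11). Gli3 gave 732, 648 and 842 counts in CDC and 1031, 935 and 1048 in CDC-EpiC, a rise of 0.40 log2 (SE 0.0915, adjusted p = 0.00114). The gap between CDC library 3 and the lowest clone library was small, and without CDC libraries 1 and 2 the change of Gli3 was 0.23 (adjusted p = 0.0681, the highest of 18 alternatives, whose lowest was 0.000108).

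pEpiC differed from CDC chiefly in the co-receptors. All 7 tested genes passed the test, where 78.3% of 13526 genes did, 5 of them higher in pEpiC, against 39.8% of all genes. The 3 co-receptors were at least 2-fold higher (15.7% of all genes), and no gene of the 7 was 2-fold lower (14.4%). The median log2 change of the 7 was 0.54, beside 0.0196 for all genes. Gas1 gave 11915, 11473 and 8065 counts in pEpiC, and the 295 to 418 of CDC lay far below, a difference of 27.2-fold (4.76 log2, SE 0.173, adjusted p = 6.42e-09). Library 3 was the lowest of pEpiC, and without it the change was 4.92. Cdon gave 3730, 4113 and 3963 counts in pEpiC, 9.72-fold above CDC (3.28 log2, SE 0.0994, adjusted p = 2.12e-09). Boc gave 1337, 1403 and 1399 counts, 2.36-fold above CDC (1.24 log2, SE 0.0670, adjusted p = 8.80e-08). These 3 changes kept direction and call in all 18 alternatives. With an offset for transcript length, Gas1 was at 4.72, Cdon at 2.78 and Boc at 0.998, just under 2-fold.

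The remaining 4 genes moved by less than 1 log2 unit between pEpiC and CDC, and their calls depended on how the counts were scaled. Gli3 gave 1076, 1227 and 1193 counts in pEpiC, 0.54 log2 above CDC (SE 0.0915, adjusted p = 0.000307). Ptch1 gave 228, 262 and 250 counts, 0.32 log2 above CDC (SE 0.126, adjusted p = 0.0364). Gli2 gave 200, 217 and 165 counts, below those of CDC, with a change of -0.51 (SE 0.118, adjusted p = 0.00250). Smo gave 2995, 2968 and 2999 counts, with a change of -0.43 (SE 0.0569, adjusted p = 5.17e-05). Long transcripts as a whole stood higher in pEpiC, with 0.441 log2 per doubling of length over 10693 genes, and the 7 genes had a median length of 6225 bases against 2631 for all genes. With an offset for transcript length and GC content in each library, chosen after seeing the data, Gli3 was at 0.10 (adjusted p = 0.185) and Ptch1 at -0.15 (adjusted p = 0.200), while the lower level of Gli2 grew to -0.80 (adjusted p = 0.000106). Ptch1 also missed the threshold with DESeq2, with no filter on low counts, without each of CDC libraries 1 and 2 or pEpiC libraries 2 and 3, and without CDC libraries 1 and 2 together (0.08), so that its adjusted p ranged from 0.000476 to 0.613. On the log2(TPM + 1) scale, where the median of all genes moved to 0.414, Smo was at 0.07 and Gli2 at -0.0037, neither past the threshold. Without CDC libraries 1 and 2, Gli2 was at -0.45 (adjusted p = 0.0534).

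**Figure D2:**
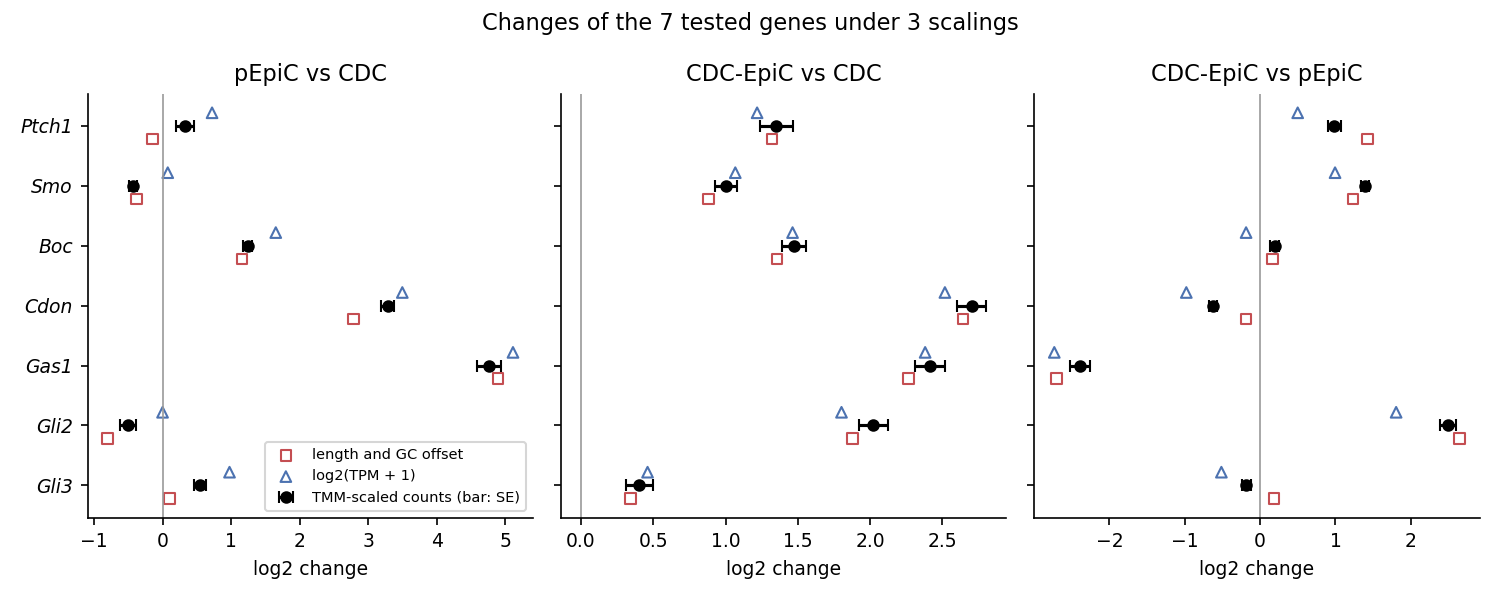
log2 change (x axis, its own range in each panel) of the 7 tested genes (y axis) in the 3 comparisons. Black points with SE bars are from TMM-scaled counts, red squares have an offset for transcript length and GC content, and blue triangles are on the log2(TPM + 1) scale; in CDC-EpiC vs CDC the 3 markers stay together on the right of 0, and in pEpiC vs CDC those of Ptch1 lie on both sides of 0.

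CDC-EpiC and pEpiC, both compared with the same CDC libraries above, also differed from each other in all 7 tested genes, where 81.9% of 13547 genes passed. Of the 7, 4 were higher in CDC-EpiC (40.3% of all genes) and 3 lower. Among them, 2 were at least 2-fold higher (15.8%) and 1 at least 2-fold lower (20.1%). The median change was 0.19 log2, beside -0.0182 for all genes. Gli2, with 952 to 1187 counts in CDC-EpiC and 165 to 217 in pEpiC, was 5.63-fold higher in the clone (2.49 log2, SE 0.110, adjusted p = 1.59e-08). Smo was 2.63-fold higher (1.39 log2, SE 0.0520, adjusted p = 5.27e-09) and Ptch1 1.98-fold (0.99 log2, SE 0.0909, adjusted p = 3.53e-06). Gas1 was 5.24-fold higher in pEpiC than in CDC-EpiC (-2.39 log2, SE 0.133, adjusted p = 8.50e-08), and Cdon 1.54-fold (-0.62 log2, SE 0.0565, adjusted p = 3.22e-06). These 5 changes kept direction and call in all 17 alternatives, though that of Cdon shrank to -0.14 with an offset for transcript length and those of Gli2 and Ptch1 to 1.81 and 0.50 on the log2(TPM + 1) scale.

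Boc and Gli3 were nearly level in CDC-EpiC and pEpiC, with changes of 0.19 (SE 0.0581, adjusted p = 0.0115) and -0.18 (SE 0.0642, adjusted p = 0.0238). Their directions turned with the scaling. Boc was at -0.19 on the log2(TPM + 1) scale, where the median of all genes was -0.327, and Gli3 at 0.33 with the length offset and at 0.18 with length and GC content. Over all 17 alternatives the adjusted p was 4.63e-05 to 0.0449 for Boc and 0.000344 to 0.0921 for Gli3.

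In order of level, Gas1, Cdon and Gli3 therefore ran from CDC over CDC-EpiC to pEpiC, and Ptch1 and Boc from CDC over pEpiC to CDC-EpiC. Gli2 and Smo were lowest in pEpiC and highest in CDC-EpiC. The neighbours CDC and pEpiC in Ptch1, Gli2 and Smo, and CDC-EpiC and pEpiC in Gli3 and Boc, are those whose order or call depended on the scaling. For Gli3 the call between pEpiC and CDC depended on it as well, with a change of 0.01 log2 under the length offset. With TPM, CDC was lowest for Gli2 and Smo, and pEpiC highest for Boc.

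Because Gli2 and Gli3 differ in how readily they act as activator or repressor, their ratio was taken within each library from FPKM, a choice made after seeing the data. It was 0.433, 0.429 and 0.347 in CDC, 1.08, 1.27 and 1.29 in CDC-EpiC and 0.215, 0.203 and 0.159 in pEpiC. The clone was the only kind in which every library held more Gli2 than Gli3. Its mean of 1.21 ± 0.119 was 3.01 times that of CDC and 6.31 times that of pEpiC, and the libraries of the kinds did not overlap. The ratio of Cdon to Boc rose in another order, from 0.430 ± 0.0582 in CDC over 1.002 ± 0.0296 in CDC-EpiC to 1.76 ± 0.0484 in pEpiC. That of Gas1 to Smo was 0.111 ± 0.01997, 0.297 ± 0.0269 and 4.06 ± 0.833. The ratios of Cdon to Boc and of Gas1 to Smo were also chosen after seeing the data. In CDC-EpiC vs pEpiC the ratio of Cdon to Boc changed by -0.81 log2 in the fit as reported. Its change was -0.57 with an offset for length and -0.35 with length and GC content. Each pair of kinds gave a two-sided exact permutation p = 0.1 for the ratios of Gli2 to Gli3 and of Ptch1 to Smo, which is the smallest that 3 against 3 libraries allow.

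**Figure D3:**
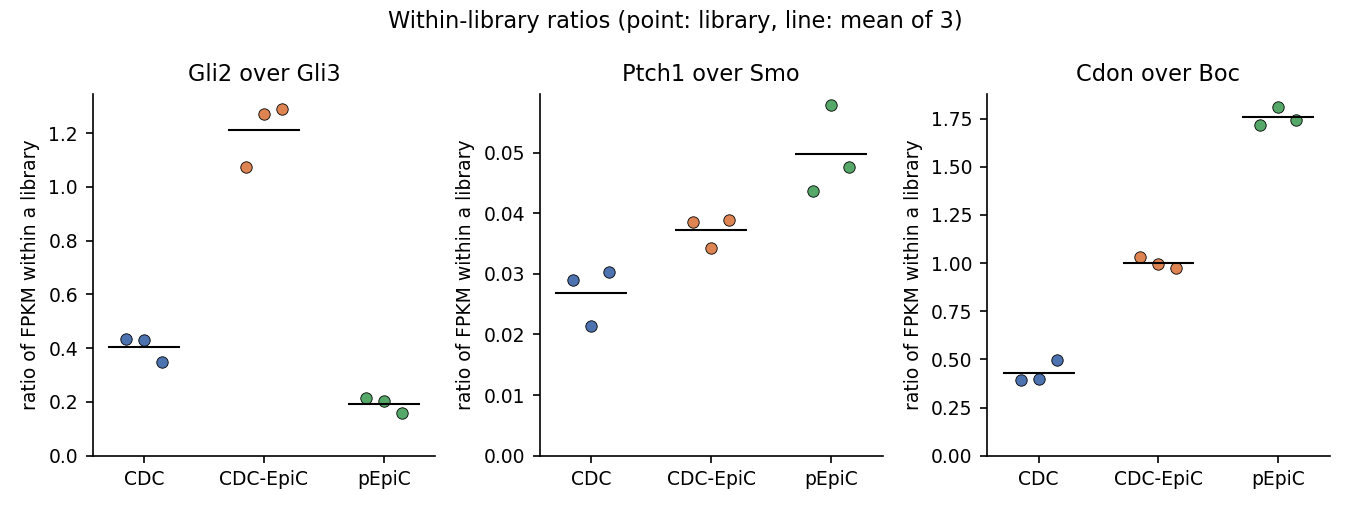
Ratios of FPKM within a library (y axes, from 0) in the 3 kinds of cell (x axis), with a point per library and a line at the mean of 3. Gli2 over Gli3 is highest in CDC-EpiC, at 1.08 to 1.29, while Ptch1 over Smo and Cdon over Boc are highest in pEpiC; with an offset for length and GC content Ptch1 over Smo is higher in CDC-EpiC.

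The genes most like Ptch1 in their pattern over the 9 libraries, by root mean square difference of centred log2(CPM + 0.5) among 12499 genes, included Sft2d2 (0.0785) and Plxna2 (0.0903). The closest of the 9 genes was Smo, at 0.340. For Gli1 and Hhip no such measure was computed, since their counts were low, at most 8 and 1 in any library.

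The other 49 genes of the pathway were read from the same tests, as 5 lists. Of the 42 tested, 36 passed in pEpiC vs CDC (21 higher, 15 lower), where 78.3% of all genes did, and 35 in CDC-EpiC vs pEpiC (17 higher, 18 lower), where 81.9% did. In CDC-EpiC vs CDC 27 of 41 passed, 14 higher and 13 lower, with a median of 0.072, where 68.8% of all genes passed. These shares lie near those of all genes. The 9 genes thus stood beside pathway genes that moved in both directions in the clone.

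The ligands themselves were barely detected. Shh did not exceed 1 count in any library. Dhh reached 0 to 4 counts and Ihh 0 to 7, neither passing the filter. Hhat, the acyltransferase that palmitoylates Hedgehog ligands, was higher in CDC-EpiC, at 11.9 ± 0.985 CPM, than in CDC at 6.51 ± 0.718 CPM (0.86 log2, SE 0.121, adjusted p = 1.39e-05) and than in pEpiC at 6.77 ± 0.776 CPM (0.81 log2, SE 0.116, adjusted p = 9.58e-05).

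Further surface proteins that bind Hedgehog ligands differed strongly. Gpc3, a glypican that competes with Patched for ligand, gave 1091, 988 and 878 counts in pEpiC, 14, 27 and 24 in CDC and 1, 0 and 0 in CDC-EpiC. It was 5.39 log2 higher in pEpiC than in CDC (SE 0.162, adjusted p = 2.04e-09), at least 321-fold higher in pEpiC than in the clone and at least 7.36-fold higher in CDC than in the clone. Gpc6, another glypican, was lower in the clone than in CDC, at -1.79 log2 (SE 0.111, adjusted p = 1.47e-09). In pEpiC it was 1.99 log2 higher than in CDC (SE 0.110, adjusted p = 1.02e-07). Lrp2, an endocytic receptor that also takes up Hedgehog proteins, rose in CDC-EpiC over CDC by 2.04 log2 (SE 0.112, adjusted p = 3.35e-10). Gpc5 did not exceed 2 counts in any library.

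Of the 7 further genes known as Hedgehog targets in other tissues, 6 were tested, and all of them changed in each comparison, where 78.3%, 68.8% and 81.9% of all genes did. In CDC-EpiC vs CDC 1 was higher and 5 were lower. Mycn, a growth-promoting transcription factor, gave 155, 157 and 197 counts in CDC, 1179, 1876 and 1443 in CDC-EpiC and 128, 122 and 140 in pEpiC, a rise of 3.11 log2 in the clone over CDC (SE 0.159, adjusted p = 1.59e-10). Ccnd2, a D-type cyclin, went from 744 ± 44.0 to 213 ± 23.1 CPM, a change of -1.81 (SE 0.0936, adjusted p = 1.79e-10). Foxf2, a forkhead factor of mesenchyme, went from 21.5 ± 1.99 to 6.78 ± 1.14 CPM, a change of -1.67 (SE 0.121, adjusted p = 9.19e-09). In pEpiC vs CDC again 5 of the 6 were lower, with Foxf2 at -2.07 (SE 0.111, adjusted p = 8.42e-08) and Foxf1 at -1.48 (SE 0.0878, adjusted p = 1.67e-07). Bcl2, an inhibitor of apoptosis, was the one that rose in pEpiC, by 0.93 (SE 0.106, adjusted p = 1.76e-05). With an offset for length and GC content the rise of Bcl2 was 0.27, and on the log2(TPM + 0.1) scale the lower values of Mycn and Ccnd2 in pEpiC vs CDC turned to 0.0148 and 0.143, both without a call. In CDC-EpiC vs pEpiC 4 were higher and 2 lower, the change of Foxf2 among the former turning to -0.10 with an offset for length and GC content.

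**Figure D4:**
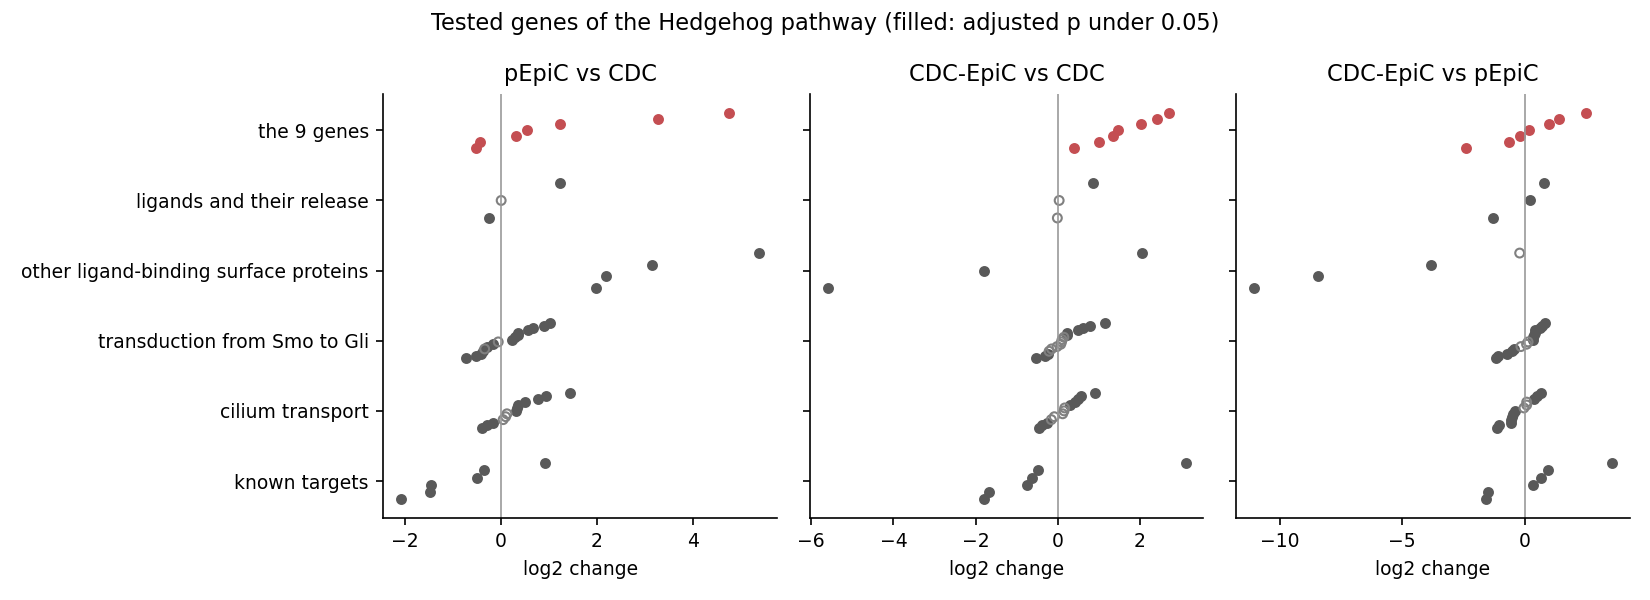
log2 change (x axis, its own range in each panel) of the tested genes by list (y axis), with filled points at an adjusted p under 0.05 and open points otherwise; genes are spread vertically within a list by rank. The 9 genes (red, 7 tested) all lie right of 0 in CDC-EpiC vs CDC, while every other list with more than 3 tested genes has genes on both sides there; the lowest points among the surface proteins in CDC-EpiC vs pEpiC are fitted against libraries at the floor and are no bounds.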

How the data were processed

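The authors deposited 1 table with expected counts, FPKM and TPM for 3 libraries per kind of cell. The library was made from oligo(dT)-selected RNA with random hexamers. The submitters' processing notes name mm10, HISAT2 2.0.4, Bowtie2 2.2.5, RSEM 1.2.12 and DESeq2 1.4.5 without roles; annotation and use of strand are not given in the sources used here, so overlapping and antisense genes are uncertain. The 9 columns of means deposited by the authors were not used. Expected counts (30.3% of values not whole) were rounded, genes filtered with filterByExpr (minimum count 10, total 15), scaled by TMM and tested per pair of kinds with edgeR 4.0.16 (R 4.3.3) at an adjusted p of 0.05. Alternatives used DESeq2 1.42.0 and limma 3.58.1 on the deposited FPKM and TPM, with a pseudocount of 1 or 0.1. Named are all 9 genes and, of the other pathway genes, those at or under 3 counts in every library and up to 2 of the largest rises and falls per list and comparison; Dhh and Ihh were added after their values were seen. Some genes that these rules would name are not reported here. The genes and lists were chosen with earlier results of these data known. Pairs of libraries of a kind differed beyond sampling noise (chi-square per degree of freedom 4.72 to 21.8). Transcript lengths were taken from the ratio of counts to FPKM, and GC content from GENCODE M21 on GRCm38.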

Additional observations from a re-analysis of the deposited data

How the results depend on the processing

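Over 17 or 18 alternatives per comparison, the numbers of the 9 genes called (5 to 7 in pEpiC vs CDC, 6 to 7 in the others), of those changed at least 2-fold, and of other pathway genes called (30 to 36, 25 to 29 and 33 to 37) stayed within 1.5 times the reported ones. Those of the 9 genes changed at least 2-fold numbered 2 to 4, 5 to 6 and 2 to 4 in the 3 comparisons. Of 21 tests of single genes, 14 kept direction and call in every alternative. In all, 8 results reversed. Ptch1 in pEpiC vs CDC was at -0.11 with the length offset and at -0.15 with length and GC content. Smo in that comparison was at 0.0722 on the log2(TPM + 1) and at 0.0730 on the log2(TPM + 0.1) scale. In CDC-EpiC vs pEpiC, Boc was at -0.186 and -0.191 on these 2 scales, and Gli3 at 0.33 with the length offset and at 0.18 with length and GC content. A further 18 results kept their direction but lost the call; they belong to Ptch1, Gli2 and Gli3. The cause was not tested. TPM moved the share of calls that were higher from 50.8% to 74.5% in pEpiC vs CDC and from 49.3% to 32.9% in CDC-EpiC vs pEpiC.

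Library numbers did not pair the kinds, as same-numbered libraries had correlations of -0.163 to 0.110. With the library number as a replicate block, all 7 tested genes were called in each comparison, as without it, and 10604, 8831 and 11096 of all genes against 10593, 8928 and 11091. At this depth Gli1 and Hhip could not be compared. Leaving out each library in turn left 6 to 7 genes called in pEpiC vs CDC and in CDC-EpiC vs pEpiC and 7 in CDC-EpiC vs CDC.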

Other observations

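The genes that act between Smo and the Gli factors, and those of ciliary transport, on which Gli processing depends, moved in both directions. Of 16 transduction genes tested in CDC-EpiC vs CDC, 9 passed, 6 higher and 3 lower, with a median of 0.0981, where 68.8% of all genes passed. Sufu, which holds Gli proteins in the cytoplasm, was higher in the clone, at 49.4 ± 1.52 CPM against 28.5 ± 1.72 CPM (0.79 log2, SE 0.0762, adjusted p = 2.46e-07, edgeR), and so was Stk36, a Fused-type kinase, by 1.14 (SE 0.122, adjusted p = 7.42e-07). The catalytic subunits of protein kinase A, which phosphorylates Gli2 and Gli3, went opposite ways in CDC-EpiC vs pEpiC: Prkaca was at 163 ± 5.11 against 91.0 ± 3.92 CPM (0.84, SE 0.0496, adjusted p = 1.32e-07) and Prkacb at 51.3 ± 1.69 against 115 ± 3.76 CPM (-1.17, SE 0.0483, adjusted p = 1.02e-08).

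Of 13 ciliary transport genes, 8 passed in CDC-EpiC vs CDC, 5 higher and 3 lower, and 10 in CDC-EpiC vs pEpiC, 3 higher and 7 lower, where 68.8% and 81.9% of all genes passed. Ift122 and Ift52, of the intraflagellar transport complexes, were higher in the clone than in CDC, by 0.89 (SE 0.0798, adjusted p = 1.01e-07) and 0.56 (SE 0.0806, adjusted p = 1.81e-05). Kif3a, a subunit of the anterograde motor, was lower in the clone than in pEpiC, at 24.5 ± 1.14 against 53.9 ± 2.32 CPM (-1.14, SE 0.0602, adjusted p = 5.89e-08). Dync2h1, the heavy chain of the retrograde motor, was at -1.06 in that comparison (SE 0.107, adjusted p = 7.09e-06), and at 0.06, without a call, when an offset for transcript length and GC content was used.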
